A study of Mus musculus with 14 samples.

Results

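Thymic lymphomas of the CD4-SB strain that expressed little Il23r, the gene of the interleukin-23 receptor, were compared with those of the Vav-SB strain. These were the CD4-SB tumours whose mean log2 level over the 13 probe sets of Il23r lay below 9. This rule chose 3 of the 7 CD4-SB tumours (replicates 3, 4 and 7), and all 7 Vav-SB tumours stood on the other side, so 10 of the 14 tumours of the series were compared. The remaining 4 CD4-SB tumours, called Il23r-high below, entered no test and are given for reference. The tumours are mouse thymic lymphomas from 2 Sleeping Beauty models of T-ALL (acute lymphoblastic leukaemia of T cells), in which a mobile DNA element jumps in the genome and mutates the genes it lands in. The series title concerns the influence of the cell of origin on genetic selection. The labels name each group by its strain and disease only and give no alleles, no promoter that drives the transposase, no age and no sex, and every tumour carries the same disease label. Strains of such names generally use regulatory sequences of Vav, active in blood cells from the stem cell onward, or of Cd4, active in thymocytes from the double-positive stage onward, and no untransformed thymus served as a control here. Total RNA of frozen tumours (50 ng each) was amplified and hybridised to exon arrays, which gave 15800 named genes, each the mean of its probe sets on the log2 scale. The question is which differences between the models remain when the CD4-SB tumours with a gamma-delta-like Il23r level are left out.

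T cells develop in the thymus through stages named after their coreceptors. Double-negative cells carry neither CD4 nor CD8, cut and rejoin their antigen receptor genes with the Rag recombinase, and depend on Notch signals. Cells whose beta chain works pass through the pre-T-cell receptor to the double-positive stage, rearrange the alpha chain, and then mature into CD4 or CD8 cells that shut recombination off. Gamma-delta T cells branch off early, and a subset of them, the gamma-delta T17 cells, carries the interleukin-23 receptor and makes interleukin-17. CD8 cells, natural killer cells and some gamma-delta cells carry cytotoxic granules.

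The gap in Il23r between the 2 kinds of CD4-SB tumour was wide. Il23r was at 6.57, 5.69 and 5.40 in CD4-SB replicates 3, 4 and 7 and at 10.60, 10.60, 11.50 and 11.07 in the Il23r-high replicates 1, 2, 5 and 6. The tumour nearest below the limit of 9 was therefore at 6.57 and the nearest above it at 10.60. In the 7 Vav-SB tumours the lowest, median and highest values were 5.33, 5.57 and 7.03, a range that holds all 3 Il23r-low tumours. It holds CD4-SB replicate 3 only through Vav-SB replicate 1, at 7.03, as the next highest Vav-SB tumour was at 5.79. The tumours were chosen by these values, which are therefore given without a test.

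**Figure D1:**
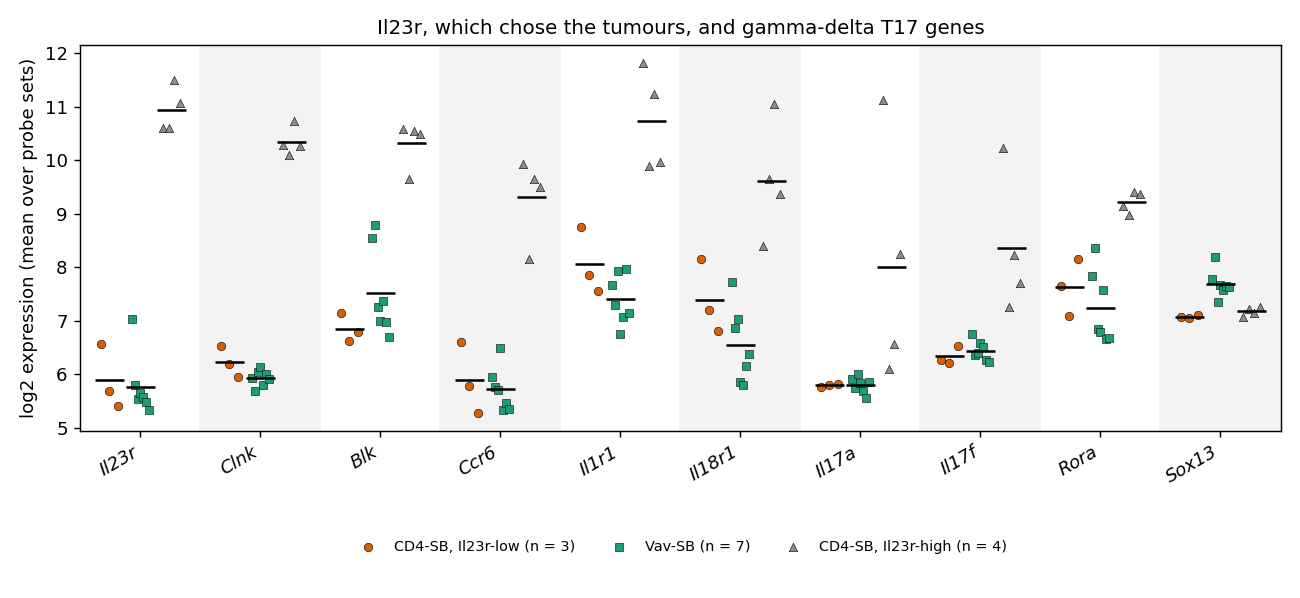
Log2 expression of Il23r and 9 other gamma-delta T17 genes in each tumour, with Il23r-low CD4-SB tumours as circles, Vav-SB tumours as squares, Il23r-high CD4-SB tumours as triangles, and group means as bars. For Il23r and Clnk the circles lie among or near the squares and the triangles lie above 10.

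The other genes of the gamma-delta T17 programme lay mostly, but not all, within the Vav-SB range in the Il23r-low tumours. Of 16 measured genes of that list without Il23r, 11 had an Il23r-low mean within the Vav-SB range, and 0 had every Il23r-low tumour above every Vav-SB tumour, a pattern seen in 4.75% of all genes. In 2, Sox4 and Sox13, every Vav-SB tumour lay above every Il23r-low tumour, a pattern seen in 5.42% of all genes. In 10 of the 16, every Il23r-high tumour lay above every Il23r-low tumour. Those groups were themselves split by Il23r, and the share of all genes with this last pattern was not counted. Clnk, a signalling adaptor, was at 6.52, 6.19 and 5.94 in the Il23r-low tumours, at 5.68 to 6.14 in Vav-SB and at 10.10 to 10.73 in Il23r-high tumours. Il17a, the cytokine gene of these cells, was at 5.76, 5.79 and 5.81, against 5.56 to 6.01 in Vav-SB and 6.09 to 11.13 in Il23r-high tumours. Blk, a Src-family kinase, was at 7.14, 6.62 and 6.78, against 6.69 to 8.79 and 9.64 to 10.58, and Ccr6, a chemokine receptor, at 6.60, 5.77 and 5.27, against 5.32 to 6.48 and 8.15 to 9.92. Means outside the Vav-SB range were those of Clnk and Il1r1, which lay above it, and of Sox4, Sox13 and Etv5, which lay below it. Etv5, an ETS factor, was at 8.22, 7.03 and 8.09 against 8.18 to 10.22. Cd163l1, a scavenger receptor gene, was at 7.55, 7.09 and 6.88 against 6.99 to 10.77, with means of 7.17 and 9.31, so most Vav-SB tumours lay above the Il23r-low ones. These genes vary with the gene that chose the tumours, so they are described only. 

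The T-lineage label was checked first. Cd3e, a chain of the T-cell receptor complex, was at 11.77, 11.44 and 11.46 in the Il23r-low tumours and at 11.52 to 11.91 in Vav-SB tumours, a log2 difference of 0.11 with a 95% interval from -0.15 to 0.36 (adjusted p = 0.644). The mean level of 11 measured T-lineage markers was 10.12, 10.16 and 10.07 in the Il23r-low tumours and 10.18 to 10.57 in the Vav-SB tumours, so the groups did not overlap although they lay close together. At an adjusted p below 0.05, 4 of the 11 passed toward Vav-SB (Lat, Cd3g, Bcl11b and Thy1) and 0 toward CD4-SB. Of all genes, 3.09% and 3.34% did so. None of the 4 overlapped. Thy1 was at 11.35, 11.21 and 11.14 against 11.49 to 12.21 (1.59-fold, adjusted p = 0.0186). Its call was lost without CD4-SB replicates 4 or 7 (adjusted p up to 0.0658). It was also lost with other cells' markers as a covariate (0.147) and with all 14 tumours in the fit (0.563). In their mean level, markers of other cells differed more than the T-lineage markers. Averaged over 75 markers of granulocytes, erythroid, stromal, B, dendritic and myeloid cells, the level was 8.37, 8.09 and 7.63 in CD4-SB replicates 3, 4 and 7 and 7.21 to 7.85 in Vav-SB tumours, so replicates 3 and 4 lay above all Vav-SB tumours and replicate 7 lay among them. The difference, Vav-SB minus CD4-SB, was -0.58 (exact permutation p = 0.0333, two-sided, over 120 splits whose smallest possible p is 0.00833). Without replicates 3, 4 or 7 it was -0.41, -0.55 and -0.78, with exact permutation p = 0.111, 0.111 and 0.0556. In bulk tumours fewer cells of a type and less RNA per cell cannot be told apart, and the part of these markers in the results below was not tested, beyond fits that hold their level as a covariate.

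CD4-SB replicate 3 stood apart from the other tumours in the cell-cycle and interferon-stimulated lists. All 20 measured cell-cycle genes were lowest there among the 3 Il23r-low tumours and lay below every Vav-SB tumour, and all 18 interferon-stimulated genes were highest there and lay above every Vav-SB tumour. The share of all genes with replicate 3 at such an extreme was not counted, so whether the pattern is particular to these lists is not known. Mki67, the proliferation antigen, was at 9.90 in replicate 3 but 11.92 and 11.78 in replicates 4 and 7, against 11.54 to 12.16 in Vav-SB. Igtp, an interferon-induced GTPase, was at 10.70 there, at 8.40 and 8.10 in replicates 4 and 7, and at 7.69 to 8.80 in Vav-SB. Y-linked genes were high in 1 of the 3 Il23r-low tumours, which was again replicate 3, in 3 of the 7 Vav-SB tumours and in 0 of the 4 Il23r-high tumours. The count of differing genes given next was 1017 with this tumour and 1089 without it. The 3 Il23r-low tumours carry 3 different first numbers in their titles and the Vav-SB tumours 7. Replicate 7 shares its number with Il23r-high replicates 5 and 6. The labels do not say what the number means or whether each tumour came from its own animal. Each p-value sets a difference between groups against the spread among these tumours. It takes the tumours as independent, which the labels do not settle.

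**Figure D2:**
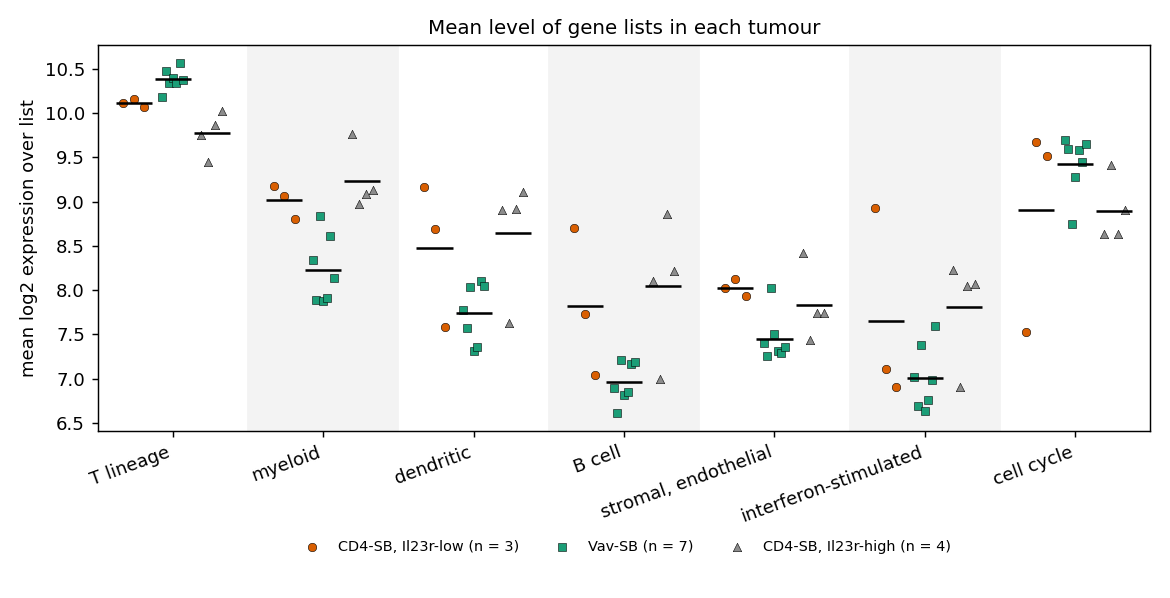
Mean log2 level of 5 marker lists, the interferon-stimulated list and the cell-cycle list in each tumour, with symbols by group and bars at group means. CD4-SB replicate 3 is the circle at 8.93 for interferon-stimulated genes and at 7.53 for cell-cycle genes.

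Between the Vav-SB and the Il23r-low CD4-SB tumours, 1017 of 15800 genes differed at an adjusted p below 0.05, or 6.44% of genes. Of these, 489 (3.09%) were higher in Vav-SB tumours, while 528 (3.34%) were higher in the CD4-SB tumours. Tumours of the groups did not overlap in 1608 genes (10.2%), of which 857 (5.42%) ran toward Vav-SB and 751 (4.75%) toward CD4-SB. Of the 489 and 528 called genes, 194 and 195 differed at least 2-fold, and 43 and 33 at least 4-fold. The comparison of all 7 CD4-SB tumours with the same Vav-SB tumours gave 2284 genes (14.5%), of which 783, or 34.3%, still passed with the Il23r-low tumours alone. These 783 are 77.0% of the 1017, and the other 234 passed only against the Il23r-low tumours. Both fits share the 7 Vav-SB and the 3 Il23r-low tumours, and the smaller one has the larger median standard error (0.15 against 0.13), so their counts are not on an equal footing. Of 73 genes that differed at least 4-fold in the comparison of all tumours, 37 of the 43 higher in Vav-SB still passed, against 12 of the 30 higher in CD4-SB. The number of calls rested on single tumours: it was 516 without CD4-SB replicate 4 and 562, 617 and 665 without Vav-SB replicates 5, 4 and 2. Passing under every omission of 1 tumour were 355 genes, 198 toward Vav-SB and 157 toward CD4-SB. With the level of other cells' markers as a covariate 123 genes passed, 86 and 37 by direction.

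The differences that stood out most were the genes of antigen receptor rearrangement and of double-positive thymocytes, all toward Vav-SB. Of 18 measured genes of the double-positive list, 13 were higher in Vav-SB tumours and 0 in CD4-SB, against 3.09% and 3.34% of all genes. The list's median log2 difference was 2.21, against 0.0 over all genes. Of 10 measured genes of V(D)J recombination and end joining, 7 were higher in Vav-SB tumours and 0 in CD4-SB, with a median of 1.33. Members of both lists were chosen with earlier results of these data known, so the counts are descriptions. In the fit with all CD4-SB tumours, which shares 10 tumours with this one, the counts were 17 and 7, against 14.5% of all genes called in either direction. Without CD4-SB replicate 3 they were 12 and 7 toward Vav-SB, and 0 and 1 toward CD4-SB.

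Dntt encodes terminal transferase, which adds bases at the joints of rearranging receptor genes. It was at 5.90, 6.20 and 5.37 in CD4-SB replicates 3, 4 and 7, and its lowest, median and highest values in Vav-SB were 10.13, 11.48 and 11.95. The 2 groups lay far apart, with a 43.1-fold difference (log2 5.43, SE 0.34, adjusted p = 1.67e-05), and the Il23r-high tumours were as low as the Il23r-low ones, at 5.06 to 5.47. Rag1, a subunit of the recombinase, was at 5.52, 5.86 and 5.87 against 9.66, 10.56 and 11.36, which is 27.3-fold (log2 4.77, SE 0.28, adjusted p = 1.07e-05). Its partner Rag2 was at 4.06, 4.38 and 4.36 against 6.64, 8.52 and 9.16, or 17.4-fold (log2 4.12, SE 0.44, adjusted p = 0.000666). Neither Rag gene overlapped between these groups, whereas 1 Il23r-high tumour reached 8.0 for Rag1 and 8.49 for Rag2. Both differences were larger with the Il23r-low tumours than with all CD4-SB tumours, where the folds were 21.6 and 10.4.

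The promoters of 4 genes are shown because these have the largest folds of each direction among genes with a single promoter entry in the RefSeq-based table (GRCm38.p6), all 4 of which were matched by symbol. Those of Dntt and Rag1, the 250 bases before the start site, lie at chr19:41029025-41029274 on the plus strand and chr2:101649533-101649782 on the minus strand. Capitals mark 3 motifs searched on both strands: CAGGTG or CACCTG, an E-box of the E proteins, TGTGGT or ACCACA, the core of Runx sites, and AGGTGTGA or TCACACCT, a T-box. The E-box and the T-box can share the letters AGGTG.
Dntt: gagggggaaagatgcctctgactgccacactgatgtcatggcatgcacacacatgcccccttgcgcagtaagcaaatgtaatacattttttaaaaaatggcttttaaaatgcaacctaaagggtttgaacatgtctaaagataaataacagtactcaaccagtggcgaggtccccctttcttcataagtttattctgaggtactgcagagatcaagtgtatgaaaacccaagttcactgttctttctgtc
Rag1: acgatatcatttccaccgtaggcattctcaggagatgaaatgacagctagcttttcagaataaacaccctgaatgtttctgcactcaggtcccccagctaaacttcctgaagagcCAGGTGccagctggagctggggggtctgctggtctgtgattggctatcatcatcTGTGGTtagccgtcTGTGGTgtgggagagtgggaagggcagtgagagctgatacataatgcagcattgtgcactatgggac
The Rag1 window holds 1 E-box and 2 Runx cores, and that of Dntt holds 0 of the 3 motifs. Among 32851 promoters of this length, 17.2% hold the E-box, 14.0% the Runx core and 1.12% the T-box. A match describes letters and not a bound factor.

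The other large differences of this kind ran the same way. Arpp21, which encodes a phosphoprotein of thymocytes and neurons, was at 5.87, 5.75 and 5.88 against 10.07, 10.89 and 11.02, a 30.5-fold difference (SE 0.18 on the log2 scale, adjusted p = 2.08e-07). Endou, an endoribonuclease gene, was at 6.57, 6.59 and 7.20 against 11.07, 11.45 and 11.75, a 25.3-fold difference with the same adjusted p. For both genes the 3 CD4-SB tumours lay within a narrow band and the groups did not overlap. Lig4, the ligase that seals DNA ends, was at 6.90, 6.96 and 7.20 against 9.86, 10.27 and 10.73, or 9.77-fold (adjusted p = 1.06e-05), on 2 probe sets. Sva was 10.6-fold higher in Vav-SB, Ccdc18 9.69-fold and Hdgfl3 8.87-fold, and none of the 3 overlapped. The calls of Dntt, Rag1, Rag2, Arpp21, Endou, Lig4, Sva, Ccdc18 and Hdgfl3 were kept under every alternative run, including each omission of a tumour and the marker covariate.

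**Figure D3:**
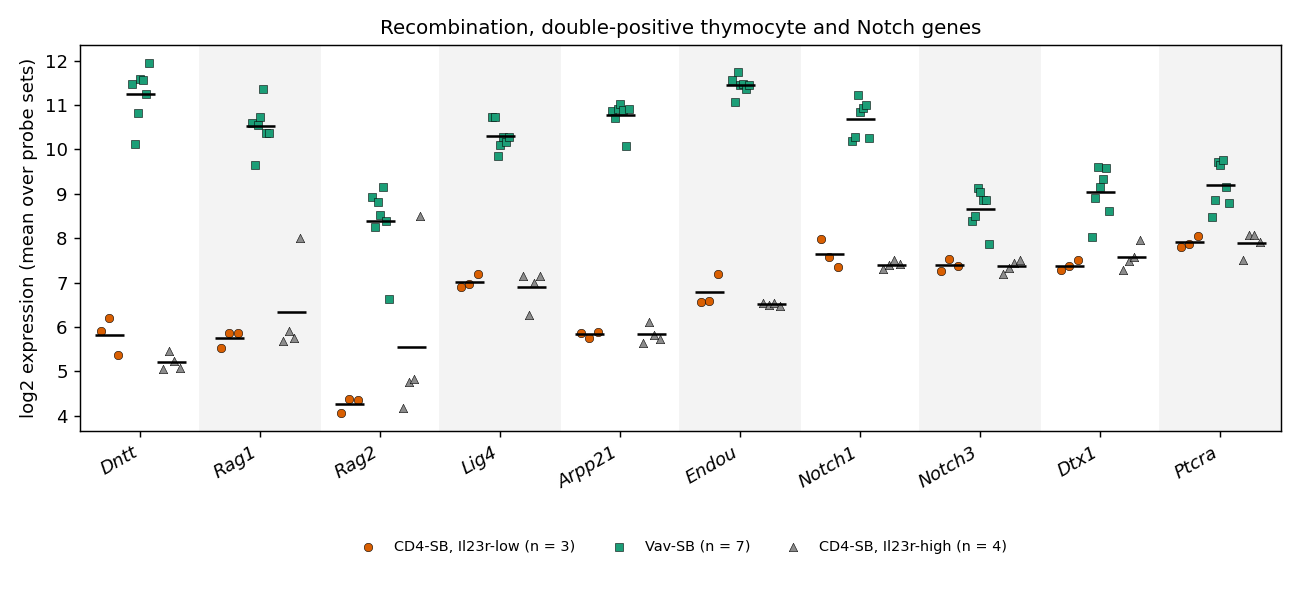
Log2 expression of recombination, double-positive thymocyte and Notch genes in each tumour, with symbols by group and bars at group means. For each of the 10 genes all squares (Vav-SB) lie above all circles (Il23r-low CD4-SB).

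Further end-joining genes were higher in Vav-SB by less. Xrcc6, which encodes the Ku70 end-binding protein, was at 8.41, 9.89 and 9.63 against 10.67 to 11.58 (log2 difference 1.86, adjusted p = 0.00588). Xrcc4, the partner of the ligase, differed by 0.78 (adjusted p = 0.00477), and Dclre1c, the Artemis nuclease that opens hairpin ends, by 0.80 (adjusted p = 0.00843). With the marker covariate the calls of Xrcc6, Xrcc4 and Dclre1c ended (adjusted p = 0.144, 0.0755 and 0.138), with differences of 1.63, 0.83 and 0.77. Xrcc5, Prkdc and Atm, of the same list, differed by -0.35, -0.01 and -0.07 and did not pass (adjusted p = 0.395, 0.98 and 0.761). Themis, a T-cell receptor signalling gene of thymocytes, was at 10.04, 8.52 and 8.27 against 10.54 to 11.48 (log2 difference 2.18, adjusted p = 0.00449), and Aqp11, an aquaporin gene, at 8.03, 8.82 and 7.66 against 9.17 to 10.99 (2.24, adjusted p = 0.0075). The marker covariate ended both calls (adjusted p = 0.0586 and 0.167), with differences of 2.46 and 1.89. H2-T3, an MHC class I gene of the nonclassical kind whose probe sets can bind relatives, stood 9.18-fold above CD4-SB in Vav-SB tumours (adjusted p = 0.00223), a call that ended with the marker covariate (adjusted p = 0.0759, difference 2.92 in place of 3.20). Ccr9, a thymus-homing receptor, differed by 2.58 and Slamf1 by 1.60, but their groups overlapped and neither passed (adjusted p = 0.093 and 0.078).

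Trat1 and Iltifb had large folds and overlapping groups. Trat1, which encodes a T-cell receptor adaptor, was 14.4-fold higher in Vav-SB on average (adjusted p = 0.039), with values of 6.04, 4.38 and 4.33 against 4.89, 9.47 and 9.88. Vav-SB replicate 3, at 4.89, lay below CD4-SB replicate 3. Iltifb, which is nearly identical to the gene of interleukin-22 and has 1 probe set that can bind both, was at 6.13, 6.19 and 5.25 against 5.89, 11.01 and 11.62, or 18.2-fold (adjusted p = 0.0478). The call of Trat1 was lost without 8 and that of Iltifb without 9 of the 10 tumours when these were omitted in turn (largest adjusted p = 0.124 and 0.119), while the log2 difference in those omissions stayed between 3.56 and 3.86 (3.85 with all tumours) and between 3.88 and 4.43 (4.18 with all tumours). The marker covariate ended both calls (adjusted p = 0.406 and 0.167), with differences of 2.61 and 5.39.

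Notch signalling genes were higher in Vav-SB at the level of 2 receptors and several targets. Of 15 measured genes of the list, 5 were higher in Vav-SB tumours and 0 in CD4-SB, against 3.09% and 3.34% of all genes, and the list's median difference was 0.08. Notch1, a T-ALL oncogene whose receptor commits precursors to the T lineage, was at 7.98, 7.58 and 7.34 in the Il23r-low tumours and at 10.20, 10.84 and 11.22 in Vav-SB. Every Vav-SB tumour lay above 10, and the difference was 8.24-fold (log2 3.04, SE 0.25, adjusted p = 0.000128). It was kept under every alternative run, and the Il23r-high tumours were at 7.30 to 7.50. Notch3, a related receptor and Notch target, was at 7.25, 7.54 and 7.37 against 7.87, 8.86 and 9.13 (2.43-fold, adjusted p = 0.013).

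Among targets of the receptor, Dtx1, Ptcra and Hes1 passed, higher in Vav-SB by 0.95 to 1.65 on the log2 scale, and others did not. Dtx1, an E3 ligase induced by Notch, was at 7.28, 7.37 and 7.50 against 8.03, 9.16 and 9.61 (3.14-fold, adjusted p = 0.0113). Ptcra, whose protein pairs with the beta chain in the pre-T-cell receptor, was at 7.80, 7.86 and 8.06 against 8.48, 9.15 and 9.77 (2.46-fold, adjusted p = 0.0218), and Hes1, a repressor induced by Notch, at 6.86, 7.44 and 6.74 against 7.62, 7.97 and 8.35 (1.93-fold, adjusted p = 0.0176). None of these genes overlapped between the groups. Hes1 lost its call without CD4-SB replicate 7 (adjusted p = 0.0585) and Ptcra without CD4-SB replicates 3 or 4 (adjusted p up to 0.0752). The marker covariate ended the calls of Notch3, Dtx1, Ptcra and Hes1 (adjusted p from 0.123 to 0.216), with differences of 1.4, 1.79, 1.25 and 1.02 in place of 1.28, 1.65, 1.30 and 0.95. The median of probe sets ended that of Dtx1 (adjusted p = 0.0542), and array weights ended that of Ptcra (adjusted p = 0.0575). Il2ra, the interleukin-2 receptor alpha chain of double-negative cells and a Notch target, ran from 6.62 to 12.15 in Vav-SB with a median of 11.17 and was at 7.51, 6.34 and 5.91 in the Il23r-low tumours. Its mean difference of 3.70 did not pass (adjusted p = 0.0655). It did pass without Vav-SB replicate 1 (adjusted p = 0.0116), when the Y-linked level was a covariate (0.0361) and with all 14 tumours in the fit (0.0435). The fit on genes above the median level alone also passed it (0.0471). Hes5, Hey1, Heyl, Nrarp, Rbpj and Maml1 did not pass.

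**Figure D4:**
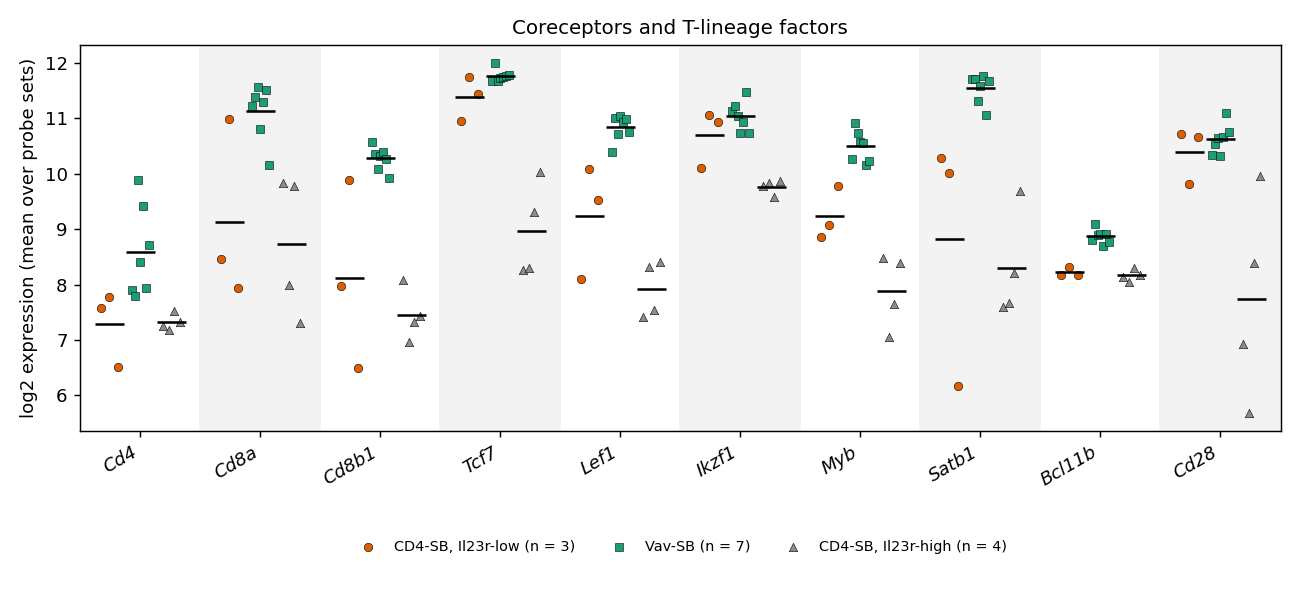
Log2 expression of coreceptors and T-lineage factors in each tumour, with symbols by group and bars at group means. For Tcf7, Ikzf1 and Cd28 the circles (Il23r-low CD4-SB) overlap the squares (Vav-SB), and the triangles (Il23r-high CD4-SB) lie lower on average.

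The transcription factors of T-lineage commitment split into those that differed from Vav-SB and those that lay near it. Of 14 measured, 5 were higher in Vav-SB tumours and 0 in CD4-SB, against 3.09% and 3.34% of all genes, with a median difference of 0.51. Tcf12, an E protein (HEB) of thymocytes, was at 9.76, 9.67 and 9.65 against 10.79, 11.24 and 11.33 (2.69-fold, adjusted p = 0.000281), and Bcl11b, which fixes T-lineage identity, at 8.17, 8.32 and 8.17 against 8.70, 8.89 and 9.10 (1.57-fold, adjusted p = 0.00449). Myb was at 8.86, 9.08 and 9.78 against 10.16, 10.56 and 10.92 (2.38-fold, adjusted p = 0.00802) and Lef1, an HMG-box factor, at 8.10, 10.08 and 9.52 against 10.40, 10.94 and 11.04 (3.04-fold, adjusted p = 0.0202). All 4 separated the groups. Satb1, a chromatin organiser of thymocytes, was at 10.28 and 10.02 in CD4-SB replicates 3 and 4 but at 6.17 in replicate 7, against 11.05 to 11.76 in Vav-SB (6.59-fold, adjusted p = 0.0455). That call was lost without each Vav-SB tumour in turn (adjusted p up to 0.085). The call of Tcf12 was kept under every alternative, that of Bcl11b ended where probe sets were summarised by their median (adjusted p = 0.0965), and those of Bcl11b, Myb, Lef1 and Satb1 ended with the marker covariate (adjusted p = 0.0892, 0.211, 0.33 and 0.0813), with differences of 0.65, 0.82, 1.02 and 4.06 in place of 0.65, 1.25, 1.60 and 2.72.

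Tcf7 and Ikzf1, which differed in the comparison of all tumours, did not pass here. Tcf7, the HMG-box factor TCF-1, was at 10.95, 11.75 and 11.43 in the Il23r-low tumours against 11.67, 11.74 and 12 in Vav-SB, a log2 difference of 0.39 with a 95% interval of 0.06 to 0.72 (adjusted p = 0.154). The Il23r-high tumours were at 8.26 to 10.03. Ikzf1, which encodes Ikaros, was at 10.11, 11.05 and 10.93 against 10.73, 11.04 and 11.47 (0.34, interval -0.14 to 0.82, adjusted p = 0.395), with Il23r-high tumours at 9.58 to 9.87. Cd28, a costimulatory receptor, was at 10.72, 9.81 and 10.66 against 10.32 to 11.09 (0.22, interval -0.25 to 0.70), with Il23r-high tumours from 5.68 to 9.96. For these genes the Il23r-low tumours overlapped Vav-SB, and for Tcf7 and Ikzf1 they lay above all Il23r-high tumours. The upper ends of the intervals stay below 1, which is a doubling. Sox4 and Sox13, HMG-box factors of the gamma-delta T17 list, are described only, like the rest of that list. Sox4 was at 7.17, 7.39 and 6.93 in the Il23r-low tumours against 7.74 to 8.50 in Vav-SB, and Sox13 at 7.07, 7.04 and 7.10 against 7.35 to 8.18. Gata3 differed by 0.62 and Runx1 by 0.81, and neither passed (adjusted p = 0.115 and 0.0777).

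Coreceptor levels varied among the 3 Il23r-low tumours. Cd8a was at 8.46, 10.99 and 7.94 in replicates 3, 4 and 7 against 10.16, 11.29 and 11.56 in Vav-SB, so replicate 4 lay within the Vav-SB range and replicates 3 and 7 below it. The mean difference of 2.00 did not pass (SE 0.55, adjusted p = 0.058). Without replicate 4 it did (adjusted p = 0.00255), as it did in the fit on genes above the median level alone (0.0411). Cd8b1, the other CD8 chain, was at 7.98, 9.89 and 6.49 against 9.92, 10.32 and 10.58 and passed (4.45-fold, adjusted p = 0.0379), but not in 8 of the 10 single omissions (adjusted p at most 0.0787), nor with the level of Y-linked genes or of other cells' markers as a covariate (0.0527 and 0.147). Cd4 was at 7.57, 7.78 and 6.52 against 7.80, 8.40 and 9.88 (log2 difference 1.29, adjusted p = 0.13). No Il23r-low tumour reached the lowest Vav-SB tumour in Cd4, and the Il23r-high tumours were at 7.18 to 7.53.

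Of 20 measured genes of T-cell receptor signalling, 4 were higher in Vav-SB tumours and 0 in CD4-SB, against 3.09% and 3.34% of all genes, with a median difference of 0.24. Besides Ptcra and Trat1 these were Lat, the membrane scaffold of the receptor signal, at 10.59, 10.70 and 11.05 against 11.48 to 11.78 (1.81-fold, adjusted p = 0.00205), and Cd3g, at 11.48, 11.53 and 11.51 against 11.72 to 12.13 (1.44-fold, adjusted p = 0.0136). Both separated the groups by less than 1 on the log2 scale at their nearest tumours, and both calls ended with the marker covariate (adjusted p = 0.0759 and 0.254). Cd3d, Fyn, Zap70 and Lcp2, which act in the same signal, differed by 0.10, 0.04, -0.06 and 0.07 and did not pass.

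Several genes of cytotoxic cells were higher in the CD4-SB tumours. Of 19 measured, 5 were higher in Il23r-low CD4-SB tumours and 0 in Vav-SB, against 3.34% and 3.09% of all genes, and the median difference was -0.42. Gzmk, which encodes granzyme K, was at 8.62, 9.82 and 9.61 in CD4-SB replicates 3, 4 and 7 and at 5.68, 5.83 and 5.94 in Vav-SB. It was 11.6-fold higher in the CD4-SB tumours (log2 difference -3.54, SE 0.21, adjusted p = 1.07e-05). The Il23r-high tumours were at 5.64 to 6.58, near Vav-SB, and with all CD4-SB tumours together Gzmk did not pass (adjusted p = 0.0973).

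Ctsw, the gene of a cathepsin of cytotoxic cells, was at 10.80, 10.44 and 10 against 6.55, 6.97 and 7.58, or 10.9-fold higher in CD4-SB (SE 0.23 on the log2 scale, adjusted p = 2.28e-05). Nkg7, a cytotoxic granule membrane protein, was at 12.10, 10.99 and 10.66 against 6.55, 8.13 and 9.61, or 9.88-fold (SE 0.67, adjusted p = 0.0178). Crtam, a surface receptor of activated CD8 and NK cells, was at 8.66, 9.16 and 9.53 against 5.49, 5.86 and 6.34, or 9.34-fold (SE 0.20, adjusted p = 1.67e-05). None of the 3 overlapped, and the spread of Nkg7 in Vav-SB was the widest. Il23r-high tumours were also high in Crtam, at 8.30 to 9.11, but ranged from 6.81 to 9.22 in Ctsw and from 7.54 to 11.36 in Nkg7. Tbx21, which encodes the factor T-bet, was at 8.64, 8.64 and 8.06 against 7.04, 7.25 and 7.42 (2.30-fold, adjusted p = 0.00105), and Cxcr3, a chemokine receptor that T-bet induces, at 10.42, 10.20 and 8.77 against 6.29, 6.71 and 7.00 (8.94-fold, adjusted p = 0.000349). Both separated the groups, and the Il23r-high tumours, at 7.06 to 7.71 and 6.55 to 8.40, lay below the Il23r-low ones and overlapped Vav-SB.

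**Figure D5:**
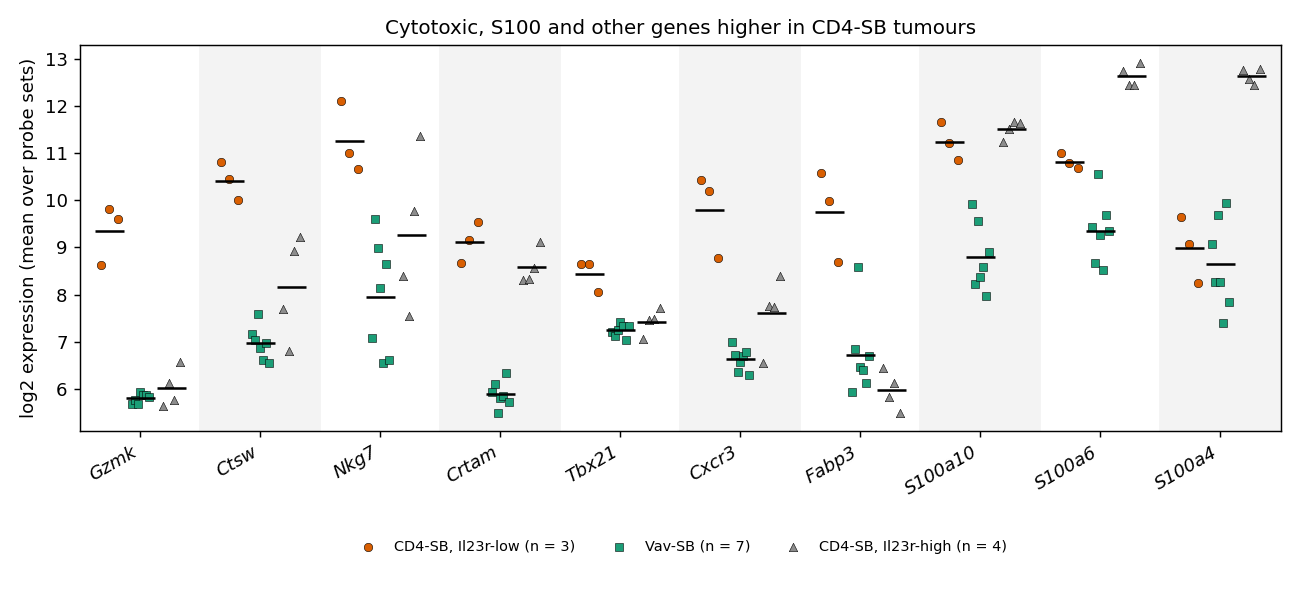
Log2 expression of cytotoxic, S100 and other genes in each tumour, with symbols by group and bars at group means. The circles (Il23r-low CD4-SB) lie above all other tumours for Gzmk, and S100a4 is near 12.5 in the triangles (Il23r-high CD4-SB) only.

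Gzmk and Nkg7 have the promoters shown for the CD4-SB direction, at chr13:113180966-113181215 on the minus strand and chr7:43436888-43437137 on the plus strand, with the same capitals as above.
Gzmk: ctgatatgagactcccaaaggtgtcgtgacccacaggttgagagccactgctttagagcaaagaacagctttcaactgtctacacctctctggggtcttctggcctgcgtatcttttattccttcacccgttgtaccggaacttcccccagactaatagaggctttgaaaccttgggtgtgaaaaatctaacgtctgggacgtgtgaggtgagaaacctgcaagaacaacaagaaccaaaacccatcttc
Nkg7: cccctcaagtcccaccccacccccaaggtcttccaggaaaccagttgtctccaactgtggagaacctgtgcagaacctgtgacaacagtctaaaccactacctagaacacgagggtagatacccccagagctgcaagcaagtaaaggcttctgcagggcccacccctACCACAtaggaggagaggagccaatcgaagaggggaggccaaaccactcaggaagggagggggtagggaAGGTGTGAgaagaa
The Nkg7 window holds 1 Runx core and 1 T-box, and that of Gzmk holds 0 of the 3 motifs.

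Not all cytotoxic genes moved. Gzma was at 10.74, 11.41 and 9.75 in the Il23r-low tumours and at 9.14 to 11.41 in Vav-SB, with Il23r-high tumours at 6.34 to 8.64, and its difference of -0.41 did not pass (adjusted p = 0.71). Prf1 (perforin) was at 6.20, 6.55 and 6.23 against 6.22 to 7.09, Gzmb (granzyme B) at 6.84, 5.50 and 5.07 against 5.14 to 5.84, and Eomes, a relative of T-bet, at 6.77, 7.36 and 6.42 against 6.31 to 6.70. Ifng, the interferon-gamma gene, differed by -0.32 (adjusted p = 0.371). Klrb1c, a receptor gene of natural killer cells, was at 9.65 in CD4-SB replicate 3 and at 4.91 and 4.38 in replicates 4 and 7. Ccl5, a chemokine of effector cells, was at 11.94, 8.42 and 6.36 against 5.48 to 7.32 in Vav-SB, so replicates 3 and 4 lay above all Vav-SB tumours. Runx3, a factor of CD8 and cytotoxic cells, differed by -0.64 and did not pass (adjusted p = 0.0625). The exceptions were the fits without CD4-SB replicate 3 (adjusted p = 0.0347), with array weights (0.0461) and on genes above the median level alone (0.0465). Without replicate 3 the list held 4 calls toward CD4-SB in place of 5. The calls of Gzmk, Ctsw, Crtam and Cxcr3 were kept under every alternative. Tbx21 ended with the marker covariate (adjusted p = 0.0532, difference -1.03 in place of -1.20), and Nkg7 ended with it (adjusted p = 0.281) and without CD4-SB replicates 3 or 4 (adjusted p = 0.0512 and 0.0528).

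A further 4 of the genes with large folds toward CD4-SB belonged to none of the lists. Arsb, a lysosomal sulfatase, was at 9.02, 9.0 and 9.91 against 6.34, 6.48 and 6.99 (6.51-fold, adjusted p = 0.000128), and Eci1, an isomerase of mitochondrial fatty acid oxidation, at 8.65, 8.71 and 8.54 against 6.04, 6.35 and 7.20 (4.51-fold, adjusted p = 0.000506). Both calls were kept under every alternative run. Fabp3, a fatty acid binding protein, was at 10.57, 9.98 and 8.69 against 5.94, 6.47 and 8.58 (8.15-fold, adjusted p = 0.00956), so its groups nearly touched at Vav-SB replicate 3. Chn2, a regulator of Rac, was 6.97-fold higher (adjusted p = 0.00843) and also nearly touched, at 8.88 against 8.59. The marker covariate ended these 2 calls (adjusted p = 0.233 and 0.192), with differences of -1.65 in place of -3.03 and -2.21 in place of -2.80.

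Of 15 measured S100 and annexin genes, most of which encode calcium-binding proteins and which mark activated or effector T cells among others, 4 were higher in CD4-SB and 0 in Vav-SB, against 3.34% and 3.09% of all genes (median difference -0.46). S100a10, a partner of annexin A2, was at 11.65, 11.22 and 10.85 against 7.97, 8.59 and 9.91 (5.47-fold, adjusted p = 0.00582), and Anxa1 at 9.70, 9.14 and 9.19 against 6.47, 6.99 and 8.31 (4.46-fold, adjusted p = 0.00619). Neither overlapped. S100a6, at 10.99, 10.79 and 10.68 against 8.53 to 10.56, and Anxa3, at 7.76, 8.22 and 7.91 against 6.64 to 7.58, passed (adjusted p = 0.0384 and 0.0316) but not in 8 and 7 of the 10 single omissions (adjusted p at most 0.101 and 0.118). All 4 calls ended with the marker covariate (adjusted p from 0.168 to 0.561), where the differences of S100a10 and Anxa1 were -1.68 and -1.30 in place of -2.45 and -2.16. S100a4 was at 9.64, 9.08 and 8.25 against 7.40 to 9.95 and did not pass (difference -0.35, adjusted p = 0.758). Its Il23r-high values, 12.45 to 12.78, lay well above both groups.

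Of 14 measured genes of MHC class I and its peptide supply, 2 were higher in CD4-SB and 0 in Vav-SB, against 3.34% and 3.09% of all genes. H2-K1 was at 11.42, 10.35 and 9.37 against 7.22, 8.53 and 8.90 (4.02-fold, adjusted p = 0.0263) and H2-D1 at 12.07, 11.47 and 10.44 against 8.27, 9.57 and 10.07 (3.82-fold, adjusted p = 0.0307). In both genes the groups did not overlap, and replicate 3 was the highest. With the marker level as a covariate the differences were -0.87 and -0.60 in place of -2.01 and -1.93 (adjusted p = 0.429 and 0.494), and the calls were lost in 2 and 5 of the 10 single omissions (adjusted p at most 0.0791 and 0.0999). Neither passed without CD4-SB replicate 3 (adjusted p = 0.0677 and 0.0861) or with array weights (0.0606 and 0.0582). Their probe sets can bind related class I genes. B2m, the shared light chain, differed by -0.20 (adjusted p = 0.459). These 2 were also the only members called among 16 measured genes of mature thymocytes and egress, where Klf2, S1pr1 and Ccr7 did not pass (differences 0.26, -0.32 and -0.64).

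Among 24 measured genes of a list of transposon insertion targets of T-ALL, 4 were higher in Vav-SB tumours and 1 in CD4-SB, against 3.09% and 3.34% of all genes (median difference 0.22). The 1 toward CD4-SB is near that background. These were Notch1, Myb, Zeb1, a repressor of T-cell genes (1.74-fold, adjusted p = 0.012), and Ccnd3, a cyclin of thymocyte growth (1.5-fold, adjusted p = 0.013), toward Vav-SB, and Lfng, which modifies Notch receptors (1.56-fold, adjusted p = 0.0244), toward CD4-SB. Lfng lost its call without CD4-SB replicates 3 or 4 (adjusted p up to 0.085), Ccnd3 when probe sets were summarised by their median (adjusted p = 0.0789) and with all 14 tumours in the fit (adjusted p = 0.108), and all 3 with the marker covariate (adjusted p from 0.155 to 0.315). Expression does not show where transposons inserted. Zmiz1, a Notch1 cofactor, was at 9.89, 10.41 and 8.79 in the Il23r-low tumours, at 8.69, 8.93 and 9.46 in Vav-SB and at 8.17 to 8.43 in Il23r-high tumours. Its difference of -0.75 did not pass (adjusted p = 0.15), except without CD4-SB replicate 7 (adjusted p = 0.0107). Erg, an ETS factor, was at 7.27, 6.81 and 6.60 against 6.43 to 10.18 and Myc at 10.49, 9.96 and 10.98 against 10.36 to 11.03, and neither passed (adjusted p = 0.411 and 0.643). Of 16 measured T-ALL oncogenes such as Tal1, Lyl1, Tlx1 and Tlx3, 0 passed limma's test in either direction. In that list 2 had an unadjusted p below 0.05, against 3542 of 15800 over all genes. Lmo2 differed by -0.18 (adjusted p = 0.754).

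Among signalling and survival lists, that of PI3K and Akt held the most calls. Of its 17 genes, 3 were higher in CD4-SB and 0 in Vav-SB, against 3.34% and 3.09% of all genes. The list's median difference was 0.21, which is toward Vav-SB. Groups did not overlap in 3 of its genes toward Vav-SB and 3 toward CD4-SB, against 5.42% and 4.75% of all genes. The called genes were Pik3cd, the lymphocyte catalytic subunit, at 8.87, 8.48 and 8.01 against 7.26 to 7.85 (1.99-fold, adjusted p = 0.0109), Inpp5d, the phosphatase SHIP1 (1.84-fold, adjusted p = 0.0278), and Pik3cb (1.68-fold, adjusted p = 0.0397). Inpp5d and Pik3cb lost their calls in 4 and 8 of the 10 single omissions (adjusted p at most 0.0763 and 0.099), and all 3 with the marker covariate (adjusted p from 0.25 to 0.54). Of 17 genes of p53 and the cell-cycle inhibitors, 1 passed in each direction, near the background. At an unadjusted p below 0.05 in limma's test there were 9 of the 17, against 3542 of 15800 over all genes. Trp53inp1 was higher in Vav-SB (3.00-fold, adjusted p = 0.0331) and Perp, a p53 target of epithelia, in CD4-SB (2.44-fold, adjusted p = 0.0216). Trp53inp1 overlapped and lost its call without 7 of the tumours, and Perp without CD4-SB replicates 3 or 4 (adjusted p up to 0.109 and 0.0821). Of 21 cytokine and JAK-STAT genes, only Jak3 passed, again near the background, toward CD4-SB (1.38-fold, adjusted p = 0.0488), a call lost without 9 of the tumours (adjusted p up to 0.126). Of 14 Bcl2-family, 20 cell-cycle, 18 interferon-stimulated and 11 Myc-linked ribosome genes, 0 passed in limma's test. In these lists 1, 1, 2 and 2 had an unadjusted p below 0.05, against 3542 of 15800 over all genes. Without CD4-SB replicate 3, which stood apart in the cell-cycle and interferon lists, these lists held 0, 0, 0 and 3 calls, the last toward CD4-SB, the PI3K list held 2 toward Vav-SB and 1 toward CD4-SB, the p53 list 3 and 0, and the cytokine list 0 and 0.

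Markers of other cells differed by cell type, against a share of 3.34% of all genes called toward CD4-SB and 3.09% toward Vav-SB. Of 17 myeloid markers 8 were higher in CD4-SB and 0 in Vav-SB, of 13 B-cell markers 2 and 0, of 17 stromal and endothelial markers 2 and 0, and of 14 dendritic markers 1 and 0. Of 10 granulocyte and 4 erythroid markers 0 were called in either direction. In limma's test 0 of them had an unadjusted p below 0.05, against 3542 of 15800 over all genes. Without CD4-SB replicate 3 the counts toward CD4-SB were 0 for myeloid, B-cell and dendritic markers and 5 for stromal and endothelial ones. The mean myeloid level was 9.18, 9.06 and 8.81 in the Il23r-low tumours and 7.88 to 8.84 in Vav-SB, and the difference of -0.79 had an exact permutation p = 0.0333, or 0.125 adjusted over 6 lists, of which 0 passed. The granulocyte and erythroid lists differed by -0.02 and 0.27. C1qa, a complement gene of macrophages, was at 10.20, 10.24 and 9.42 against 7.82 to 9.25 (3.07-fold, adjusted p = 0.0204), and Krt5, a keratin of thymic epithelium, at 8.50, 8.75 and 8.26 against 6.25 to 7.85 (2.63-fold, adjusted p = 0.0179). Neither gene overlapped. The call of Krt5 was lost without CD4-SB replicate 4 and that of C1qa without replicates 3 or 4 (adjusted p up to 0.0758 and 0.0831).

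Immunoglobulin genes had the largest folds among these, and they differed among the 3 tumours. Ighg2b was at 12.18, 10.94 and 7.58 against 6.11, 6.99 and 7.55 (9.91-fold, adjusted p = 0.0283), Igkc at 13.63, 13.33 and 11.80 against 8.20, 9.94 and 11.66 (6.81-fold, adjusted p = 0.0441), and Igh at 10.61, 9.83 and 7.47 against 6.42, 6.69 and 7.36 (5.83-fold, adjusted p = 0.0182). In each, replicate 7 lay just above the highest Vav-SB tumour. Ms4a1 and Cd79a, defining genes of B cells, were raised in replicate 3 only, at 7.59 and 7.29, against 4.86 to 5.75 and 4.92 to 5.54 in Vav-SB. In 5, 6 and 1 of the 10 single omissions the calls of Ighg2b, Igkc and Igh were lost (adjusted p up to 0.104, 0.137 and 0.0785), and with the marker covariate all 3 (adjusted p from 0.325 to 0.563). Probe sets of immunoglobulin genes can bind relatives.

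The differences that shrank most without the Il23r-high tumours lay mostly on the CD4-SB side. By more than 1 on the log2 scale, 24 of the 2284 genes had a smaller difference here than in the comparison of all tumours, and 21 of these were higher in CD4-SB there. Il23r itself, which chose the tumours, is among the 21. The 1501 genes that passed only in the comparison of all tumours were not counted by direction. Fgl2, a fibrinogen-like protein gene, was at 7.98, 6.85 and 6.24 in the Il23r-low tumours, at 5.61 to 7.00 in Vav-SB and at 9.27 to 10.45 in Il23r-high tumours. Saa3, an acute-phase gene, was at 8.44, 5.39 and 11.39, which spans the 6.03 to 7.92 of Vav-SB, against 9.71 to 12.18 in Il23r-high tumours. Akr1c13, an aldo-keto reductase gene, was at 8.46, 7.91 and 7.13 against 5.73 to 7.17 and 9.61 to 10.42, and Nt5e, the ectonucleotidase CD73, at 6.69, 7.31 and 8.30 against 5.81 to 6.30 and 8.33 to 10.19. Nt5e lay between the other groups, and Akr1c13 nearly so. Toward Vav-SB, Sh2d1a, the adaptor SAP, was at 10.12, 7.93 and 9.74 against 10.41 to 11.03 in Vav-SB and 4.71 to 9.04 in Il23r-high tumours, and Fam169b at 8.77, 7.30 and 7.94 against 9.0 to 9.55 and 5.40 to 6.88. Nt5e and Fam169b still passed (adjusted p = 0.0113 and 0.012), as did Akr1c13 and Sh2d1a (adjusted p = 0.0455 and 0.0469), although these last lost their calls without 8 of the tumours each (adjusted p up to 0.128 and 0.0887). Since the Il23r level chose the tumours, the change in size is a description.

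The 234 genes that passed only against the Il23r-low tumours were led, among 181 of them with a mean above the median level of all genes, by Gzmk, Nkg7 and Fabp3. With all CD4-SB tumours Nkg7 missed the threshold narrowly (limma adjusted p = 0.0501). Its Il23r-high values ran from 7.54 to 11.36, and the highest lay above Il23r-low replicates 4 and 7 (10.99 and 10.66). Tdrkh, a Tudor-domain gene, was at 6.08, 5.68 and 5.56 against 6.65 to 9.02 in Vav-SB and 7.10 to 8.29 in Il23r-high tumours (4.64-fold, adjusted p = 0.0277, lost without 3 of the tumours, up to 0.089). Tuba8, a tubulin gene, was at 8.29, 7.16 and 7.96 against 9.26 to 10.19 and 9.97 to 10.50 (3.85-fold, adjusted p = 0.00216). In both, the Il23r-low tumours were the lowest group. Plaat3, a phospholipase gene, was at 11.13, 9.96 and 9.55 against 7.24 to 8.81 (4.11-fold, adjusted p = 0.00897), and Olfr157, an olfactory receptor gene, at 8.23, 6.64 and 7.80 against 5.10 to 5.71 (4.35-fold, adjusted p = 0.00208). Selenbp1 and 1700006J14Rik passed too (adjusted p = 0.0403 and 0.043), but not in 8 and 9 of the 10 single omissions (adjusted p at most 0.124 and 0.157). Icos, a costimulatory receptor named after its values were seen, had means of 6.88 ± 0.45 (SD, n = 3) in Il23r-low, 8.69 ± 0.72 (SD, n = 7) in Vav-SB and 10.99 ± 0.44 (SD, n = 4) in Il23r-high tumours, and passed here (adjusted p = 0.0263) but not with all CD4-SB tumours (adjusted p = 0.729).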

How the data were processed

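The deposited table holds log2 expression values per probe set, 1 column per tumour, made by the authors with RMA and Partek per the submitters' processing notes, without versions. For the log base, nothing is stated in the labels or notes. The values, 2.03 to 14.03, are read as log2, and low ones lie near background, where folds are understated. Arrays share a median of 7.46 to 7.50, so total RNA cannot be compared. RNA was amplified from 50 ng per the labels' protocols, which adds spread. Of 194293 probe sets, the 179496 with 1 symbol named genes, of which 2020 were updated through a mouse gene table (GRCm38.p6). Their mean gave 15800 genes, a median of 9 probe sets each.

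Groups came from the strain label and Il23r, and replicates were numbered in accession order. Genes were tested with limma 3.58.1 (lmFit, eBayes) in R 4.3.3 on the 10 tumours with Benjamini-Hochberg adjustment over all genes, without a filter. Mean levels of marker lists were tested with SciPy 1.17.1. Members, lists and the rule for named genes were chosen with earlier results of these data known. That rule takes the 12 largest folds in each direction, up to 5 called genes per list, 22 genes of interest, and up to 10 genes whose difference shrank or appeared without the Il23r-high tumours. Other genes named are further list members. On simulated data with 200 of 15800 genes changed, 22%, 76%, 88% and 98% of genes changed by 0.5, 1, 2 and 4 (log2) were recovered, with 9 calls among unchanged genes.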

Additional observations from a re-analysis of the deposited data

Results flagged for a closer look

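In 9 of 92 named genes, 1 Vav-SB tumour lay apart from the other 6 by Dixon's test, which marks about 1 in 20 groups by chance. The low ones were Trat1 at 4.89 in replicate 3 (nearest other 8.70), Rag2 at 6.64 in replicate 7 (nearest 8.26), Arpp21 at 10.07 in replicate 6 (nearest 10.71) and Cd3g at 11.72 in replicate 3 (nearest 12.04). The high ones were Fabp3 at 8.58 in replicate 3 (nearest 6.84), Chn2 at 8.59 in replicate 6 (nearest 6.36), Sox4, a transcription factor of early T cells, at 8.50 in replicate 2 (nearest 8.03), Tcf7 at 12 in replicate 2 (nearest 11.78) and Zmiz1 at 9.46 in replicate 6 (nearest 8.97). With the tumours of Fabp3 and Chn2 the groups nearly touched, and in Trat1 they overlapped. The groups of 3 and 4 CD4-SB tumours were not examined in this way. The 92 do not cover every gene named in this report, so the list is not complete. Il23r at 7.03 in Vav-SB replicate 1 (nearest 5.79) and Syk at 8.17 in Vav-SB replicate 2 (nearest 6.83) are not in it.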

How the results depend on the processing

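The count of 1017 differing genes was 1108 with all 14 tumours in 3 groups, 735 with a median over probe sets, 1048 after quantile normalization, 929 among genes above the median level, 992 with array weights, 964 with a trended and robust prior and 850 with Y-linked genes as a covariate. With the level of 75 markers of other cells as a covariate it was 123 (86 toward Vav-SB and 37 toward CD4-SB). Leaving out 1 tumour gave 516 to 1218 genes, 255 to 525 of them toward Vav-SB and 261 to 693 toward CD4-SB. The 783 shared with the comparison of all tumours were 572 with a median over probe sets. The marker level differed by -0.33 as a median over markers (exact permutation p = 0.0833) and by -0.41 to -0.78 with 1 tumour left out. Of 75 named calls, 17 were kept in every setting and 36 in every setting but the marker covariate. That covariate ended 58 calls and turned 0. In 34 of the 58 the difference kept at least its former size divided by 1.5, and in 50 the standard error grew. Some of the 58, such as C1qa, Krt5, Igkc and Ighg2b, are themselves among the 75 markers, so the loss of their calls is partly built in. Signs turned only for genes that were not called: with the marker covariate Myc was at -0.07, Zeb2 0.12, Lmo2 0.55, Clnk 0.02, S100a4 1.19, Fgl2 0.47, Ccr6 0.23, Ccr2 0.09, Il1r1 0.27, Il18r1 0.02, Il17f -0.03 and Syk 0.03, and with 1 tumour left out Myc ran from -0.07 (without CD4-SB replicate 4) to 0.44. Il23r, which chose the tumours, was at 0.28 with that covariate in place of -0.12. Of the gamma-delta T17 genes described without a test, Il17a, Rora, Ccr6, Ccr2 and Syk also turned under other settings. The cause was not tested. No paired analysis was possible because the labels give no replicate numbers shared between the strains. With 3 tumours on 1 side, changes of 0.5 on the log2 scale would mostly be missed, and signal over background is unknown.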
